A study of Mus musculus with 5 samples.

Results

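The genes of 8 transcription factors of mesenchymal cells were examined for CTCF binding: Snai1, Snai2, Twist1, Twist2, Zeb1, Zeb2, Prrx1 and Tcf21. They were chosen by symbol for their shared role and make up 8 of the 21779 protein-coding genes of the RefSeq mouse annotation used here. The cells were NIH3T3, an immortalised line of mouse embryonic fibroblasts. All of them carried H2B-mCherry, the rtTA3G transactivator and a doxycycline-inducible CDX2 gene under TRE3G. CDX2 is a homeobox factor of the intestine and the trophectoderm. Per the labels, CTCF was immunoprecipitated after 6 h of doxycycline (CTCF_Dox, 2 libraries, dose labelled 500 ng/µL) and without doxycycline (CTCF_noDox, 2 libraries). With 1 input library from cells without doxycycline there were 5 in all. The labels do not say whether the line is a single clone. The values are 1 list of 22756 CTCF peaks in which both conditions had been merged, with positions and no heights. No peak is tied to a library, so CDX2 induction was not compared and there is no replicate spread. Gene expression was not measured in these files, so neither the fibroblast identity nor the activity of the 8 genes was checked.

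CTCF is a zinc finger protein that holds cohesin at the base of chromatin loops and can insulate enhancers from promoters. SNAI1 and SNAI2 (Snail and Slug) are zinc finger repressors that bind E-boxes and silence epithelial genes such as Cdh1. TWIST1 and TWIST2 are basic helix-loop-helix factors of mesoderm and cranial mesenchyme, and ZEB1 and ZEB2 are zinc finger and homeodomain repressors held in check by the miR-200 family. PRRX1 is a paired-related homeobox factor of limb and fibroblast mesenchyme, and TCF21 is a basic helix-loop-helix factor of epicardial and visceral mesenchyme. Together the first 6 are the classic factors of epithelial-mesenchymal transition (EMT).

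A CTCF peak lay just before the start of Snai1, and the promoter sequence under it holds the first 10 bases of a CTCF core, though not the full 12. The window below is chr2:167537945-167538244 on the plus strand of GRCm38.p6, the assembly behind mm10, from RefSeq. It runs from 250 bases before the Snai1 start to 50 after it. Its first 177 bases, up to 167538121, lie under a peak. That peak is 291 bp wide and begins at 167537831, so its part before the window was not searched for the core. The capitals mark matches to CCNNNAGGNG, the first 10 bases of the CTCF core CCNNNAGGNGGC, on either strand. The windows of Twist1 (chr12:33957421-33957720, plus strand) and Twist2 (chr1:91801211-91801510, plus strand) hold no peak and are shown for comparison.
Snai1: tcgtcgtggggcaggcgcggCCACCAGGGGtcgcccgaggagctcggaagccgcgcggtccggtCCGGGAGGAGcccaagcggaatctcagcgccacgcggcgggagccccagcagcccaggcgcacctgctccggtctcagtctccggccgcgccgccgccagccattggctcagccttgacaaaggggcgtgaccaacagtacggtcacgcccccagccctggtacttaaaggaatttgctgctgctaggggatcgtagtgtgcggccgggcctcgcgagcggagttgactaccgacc
Twist1: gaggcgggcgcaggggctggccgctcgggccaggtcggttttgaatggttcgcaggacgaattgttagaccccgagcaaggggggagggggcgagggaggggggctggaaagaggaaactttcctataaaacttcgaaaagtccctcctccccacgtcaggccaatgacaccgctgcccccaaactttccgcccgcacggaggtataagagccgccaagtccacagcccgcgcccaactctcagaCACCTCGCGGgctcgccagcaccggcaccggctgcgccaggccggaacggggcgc
Twist2: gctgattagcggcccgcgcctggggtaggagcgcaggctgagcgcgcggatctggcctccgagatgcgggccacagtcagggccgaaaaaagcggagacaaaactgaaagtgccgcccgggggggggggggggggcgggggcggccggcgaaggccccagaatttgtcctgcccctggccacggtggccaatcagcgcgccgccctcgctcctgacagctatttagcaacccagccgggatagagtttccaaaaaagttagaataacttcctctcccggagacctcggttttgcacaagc

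The centre of the first Snai1 match, CCACCAGGGG at 167537965 to 167537974, lies 6 bp from the midpoint of the peak. The other match, CCGGGAGGAG, lies 37 bp from it. Twist1 has 1 match, on the minus strand across the start, and Twist2 has none. The full 12-base core is in none of the promoter windows of the 6 members that have one (Snai1, Twist1, Twist2, Zeb2, Prrx1 and Tcf21). The 10-base form is in 22.6% of all 32851 promoter windows, in 51.3% of the 1179 that touch a peak and in 21.5% of the others. For the 12-base form the shares are 3.43%, 26.2% and 2.58%. The short form is therefore common, and a match is a description of the letters. Windows with a peak were also richer in bases G and C, with a median of 60.7% against 52.3%, and that of Snai1 holds 70.0%. The Snai1 window also holds 1 CAGGTG, the E-box read by SNAIL and ZEB proteins, on the minus strand as CACCTG at 167538069 to 167538074, under the same peak. CAGGTG is in 20.2% of all windows on either strand and in none of the other windows of the members.

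Over the 8 genes, CTCF binding was uneven. The body plus 100 kb on each side held 9 peaks at Snai1, 6 at Twist2, 2 at Snai2 and 2 at Prrx1. Twist1, Zeb1, Zeb2 and Tcf21 had 0. The median was 1 peak per member, against 3 over all protein-coding genes (quartiles 1 and 6). At least 1 peak was in the window of 4 of 8 members, while 81.8% of all protein-coding genes had one. A peak lay in the body of 2 of 8 (Snai1 and Twist2), against 29.5% of all genes. A peak lay within 1 kb of a gene end in 2 of 8 (Snai1 and Snai2), against 12% of all genes. The 19 peaks had a median width of 291 bp (189 to 446 bp) against 262 bp for the whole list, and 13 of them were wider than that. A window without a listed peak may have lacked reads or stayed under the peak threshold, since the depth is unknown.

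**Figure D1:**
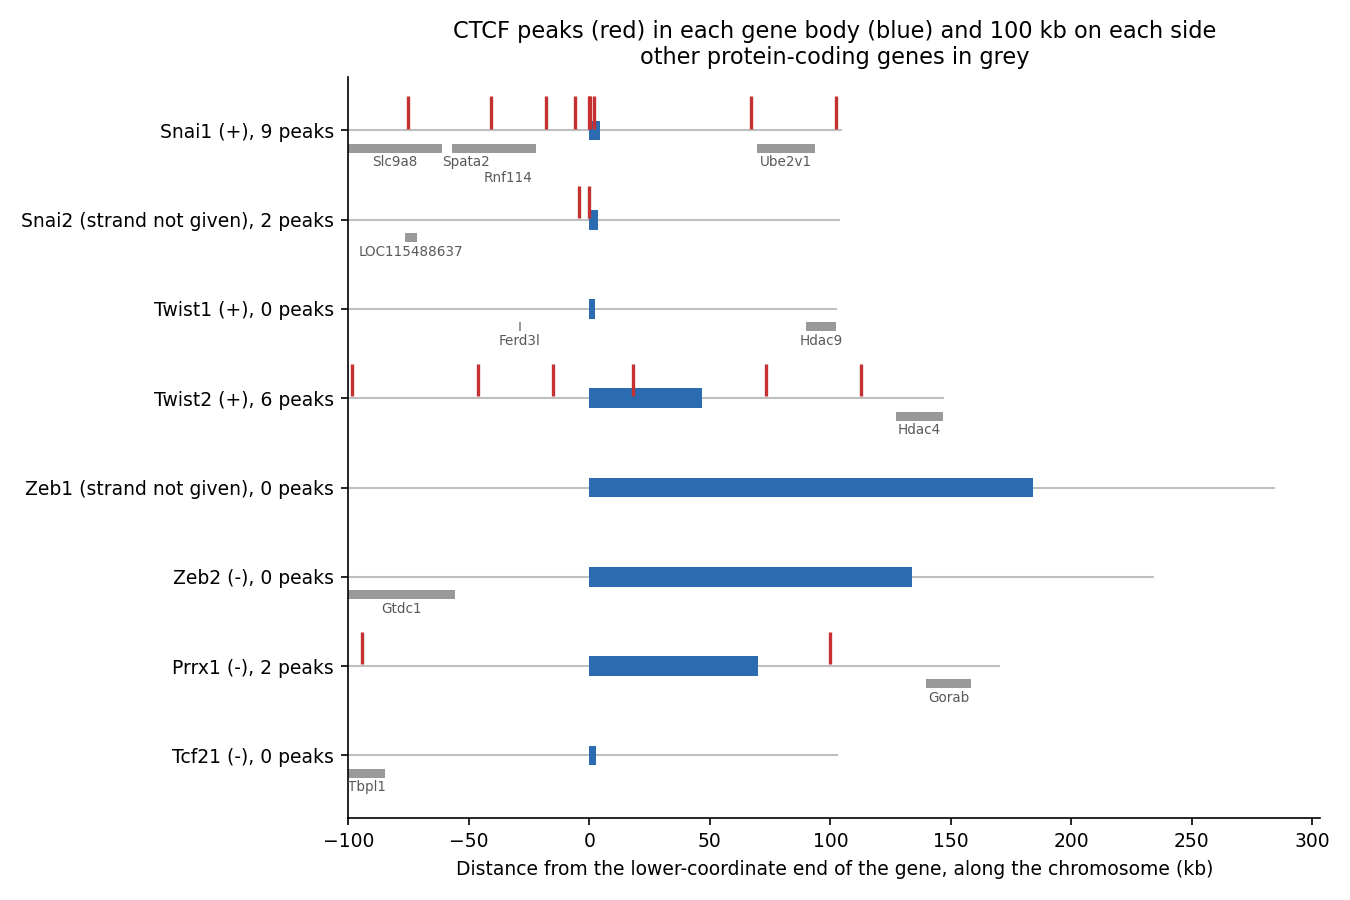
Each row is 1 gene, with distance from its lower-coordinate end in kb along the chromosome on the horizontal axis, the gene body in blue, CTCF peak midpoints as red ticks and other protein-coding genes in grey. Snai1 has 9 ticks and Twist2 has 6, while the rows of Twist1, Zeb1, Zeb2 and Tcf21 have none.

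Snai1 (chr2:167538195-167542814, plus strand, 4.62 kb) had the most peaks, 9, with 1 of them close by on each side of its start. The peak at chr2:167537831-167538121 (291 bp) ended 74 bp before the start. The next, at 167538333 to 167538539 (207 bp), lay 138 to 344 bp into the gene, and another of 189 bp followed 1.66 kb further on. The midpoints on either side of the start were 460 bp apart. Of the 17492 protein-coding genes whose strand is given, 24 had a peak within 1 kb on both sides of the start (0.137%), Snai1 among them. This both-sides count was not planned and has the form seen at Snai1, so the share is only a description. With neighbours under 500 bp apart merged, the peaks on either side of the Snai1 start became 1, and its count fell from 9 to 8. The share of genes was not recounted with merged peaks. The body peaks were narrow: 19.2% of all peaks fell below 207 bp and 8.47% below 189 bp, counting ties as 0.5. Further upstream came peaks at 5.86 kb (407 bp wide), 18.0 kb (400 bp), 40.7 kb inside Rnf114 and 75.1 kb inside Slc9a8, the gene of a sodium-proton exchanger. Downstream there was none until 62.6 kb, in the long non-coding gene Gm11476, and then 97.7 kb, in Gm31852. Spata2 and Ube2v1, the other protein-coding genes of the window, had no peak in the body or at an end.

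The Snai1 count stood above most genes of its length. The 500 protein-coding genes closest in length (4.31 to 4.95 kb) had a median of 4 peaks (quartiles 1 and 8), and 105 of them (21.0%) had 9 or more. This placed Snai1 at percentile 81.6, with ties counted as 0.5. The exact Poisson 95% interval of its 9 peaks is 4.12 to 17.1, which covers counting alone. In the length group the variance of the count was 3.85 times its mean, where independent peaks would give 1. The interval is therefore too narrow for a comparison with that median. Within 10 kb of the body it had 4 peaks, at percentile 98.5.

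Snai2 (chr16:14705852-14709395, 3.54 kb; its strand is not in the tables used) had its CTCF peaks within 4.31 kb of the body and no more up to 200 kb from it. One peak of 262 bp at chr16:14705390-14705651 had its midpoint 0.332 kb outside the lower-coordinate end, and another of 275 bp at 14701407 to 14701681 lay 4.31 kb outside it. On the other side the next peak was 398 kb away, in the gene model Gm41423. The body held none. Snai2 was at percentile 90.3 with 10 kb flanks, at 30.6 with 100 kb and at 18.1 with 200 kb, since its count stayed at 2 while that of genes of its length grew from a median of 0 to 8. The calcium-binding gene Efcab1, the next protein-coding gene on the side without peaks, lay inside the same 402 kb interval free of peaks.

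**Figure D2:**
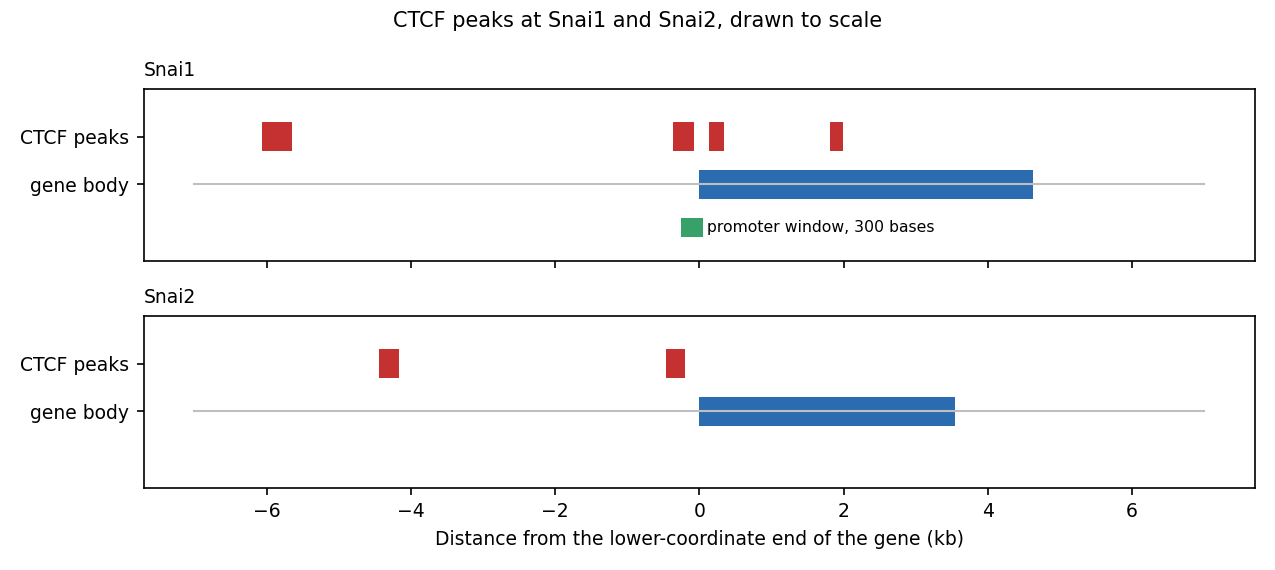
CTCF peaks (red, to scale) and gene bodies (blue) of Snai1 and Snai2, with distance from the lower-coordinate end of each gene in kb on the horizontal axis and the 300-base promoter window of Snai1 in green. Snai1 has a peak on either side of its start and another in the body, and Snai2 has 1 beside its end and 1 at 4.31 kb.

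Twist2 (chr1:91801461-91848034, plus strand, 46.6 kb) had 6 peaks spread over the whole window, with midpoints 31.3 to 55.4 kb apart. Upstream they lay 14.9, 46.2 and 98.3 kb before the start. The body peak of 249 bp at chr1:91819287-91819535 lay 18.0 kb past the start and inside the gene model Gm46117 as well. Downstream they lay 26.7 and 65.98 kb past the end, and these were the widest of the 19, at 426 and 446 bp. Among the 500 genes closest in length 152 (30.4%) had 6 or more, which placed Twist2 at percentile 74.0 against a median of 4. The nearest peaks enclosed the Twist2 start in an interval of 32.9 kb.

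Twist1 (chr12:33957671-33959831, plus strand, 2.16 kb) had no peak within 100 kb. The closest lay 352 kb away on the side of lower coordinates, before its start, and 694 kb away past its end, inside the histone deacetylase gene Hdac9. The interval between them was 1.05 Mb and held Ferd3l, another basic helix-loop-helix gene, and the part of Hdac9 nearest to Twist1. Introns of Hdac9 are known to carry Twist1 enhancers. Of the 500 genes closest in length 160 (32.0%) also had 0, and Twist1 was at percentile 16.0. A count of 0 is compatible with up to 3.69 peaks in the window, or 1.82 per 100 kb, by the exact Poisson 95% interval.

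Zeb1 (chr18:5591327-5775468, 184 kb) and Zeb2 (chr2:44983512-45117442, minus strand, 134 kb) had no peak in their long bodies or within 100 kb of them. Of the 500 genes closest in length, 327 of those matched to Zeb1 (65.4%) and 313 of those matched to Zeb2 (62.6%) had at least 1 peak in the body. In the whole window 67 (13.4%) and 56 (11.2%) had 0, which put Zeb1 at 6.7 and Zeb2 at percentile 5.6. The exact Poisson 95% interval of a count of 0 reaches 3.69 peaks, against a median of 3 in the length group of Zeb1 and of 4 in that of Zeb2. In these groups the variance of the count was 3.67 and 3.48 times its mean, where independent peaks would give 1. The interval is therefore too narrow to set Zeb2 apart from Zeb1. Around Zeb1 the nearest peaks lay 429 kb and 199 kb away, and the interval of 812 kb between them also held the zinc finger gene Zfp438.

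Zeb2 lay in the widest interval without a peak. Its neighbours were 646 kb away, in Arhgap15, and 1101 kb away, outside any annotated gene. The interval of 1.88 Mb held the whole of Gtdc1 and part of Arhgap15. Among the 186 genes of like length without a body peak and with a peak on either side, it was at percentile 93.0 against a median of 404 kb. The interval of Twist1 was at percentile 73.0 of its own group, that of Zeb1 at 68.6 and that of Snai2 at 79.7. That of Tcf21 (367 kb) was at 78.5. On the side of higher coordinates the next protein-coding gene, the activin receptor gene Acvr2a, was 3697 kb from Zeb2.

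**Figure D3:**
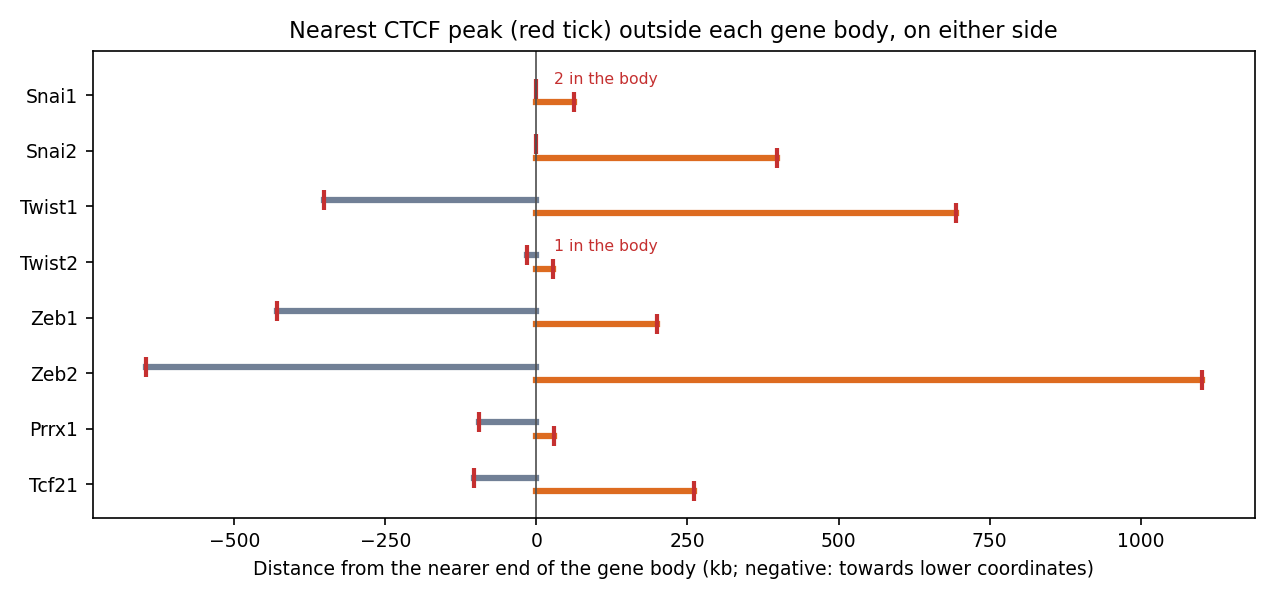
Distance in kb from each gene body to the nearest CTCF peak (red tick) on the side of lower coordinates (grey, negative) and of higher coordinates (orange); peaks inside the body are given as a number. The bars of Zeb2 reach 646 and 1101 kb and those of Twist1 reach 352 and 694 kb, while those of Twist2 reach 14.9 and 26.7 kb.

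Prrx1 and Tcf21, the lineage factors of the group, had no CTCF peak in the body or at an end. Prrx1 (chr1:163245119-163315145, minus strand, 70.0 kb) had 1 peak on each side: chr1:163345015-163345270, 29997 bp before its start, and 163150480 to 163150753, 94.5 kb past its end. Both were of middling width, 256 and 274 bp. They enclosed an interval of 195 kb with no other protein-coding gene in it, at percentile 44.2 of its group. Its 2 peaks placed Prrx1 at percentile 28.4 (median 4). Tcf21 (chr10:22817263-22820143, minus strand, 2.88 kb) had 0 in the window, like 65 of the 500 genes closest in length, and was at percentile 6.5. Its nearest peak, at chr10:22714638-22714884 inside Tbpl1, a gene of the TATA-binding protein family, was 103 kb past the end of Tcf21 and so just outside the window. The other side was free of peaks for 261 kb, up to a peak short of Eya4.

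**Figure D4:**
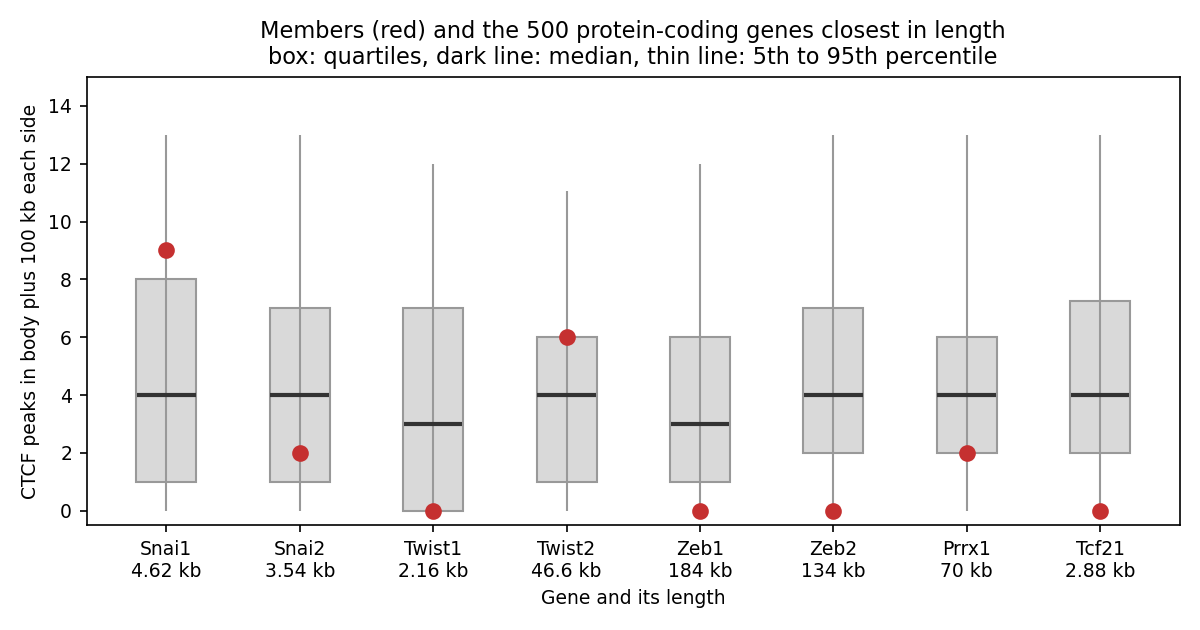
CTCF peaks in the body plus 100 kb on each side for the 8 members (red points) and for the 500 protein-coding genes closest in length to each (box: quartiles; dark line: median; thin line: 5th to 95th percentile). Snai1 and Twist2 lie above their group's median, and the other members lie below it.

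The windows also differed in how many genes they held. Snai1 had 4 other protein-coding genes in its window and the remaining 7 members had at most 2, in all 8 cases under the median of their length group (2 to 6). When the comparison genes were also required to have a like number of protein-coding genes in the window (within 1), every percentile rose. Snai1 stood at 89.5, Twist2 at 89.9, Snai2 at 67.7, Prrx1 at 46.1, Tcf21 at 24.9, Twist1 at 19.2, Zeb1 at 11.2 and Zeb2 at 8.80. Snai2 thereby moved from below to above the middle of its group. Against genes of the same chromosome within 2-fold in length, Snai1 (82.3) and Twist2 (73.7) were again the 2 highest and Zeb2 (4.00) and Zeb1 (2.82) the lowest.

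In the paralog pairs Snai1-Snai2 and Twist1-Twist2, 1 member had more CTCF peaks in its window than the other, though neither difference passed the test. In the pair Zeb1-Zeb2 both windows were without peaks. Snai1 had 9 peaks in 205 kb and Snai2 had 2 in 204 kb, or 4.40 against 0.983 per 100 kb, a difference of 3.42. Snai1 held 81.8% of the pair's 11 peaks (exact 95% interval 48.2 to 97.7%) with 50.1% of the length. By the exact two-sided binomial test p was 0.0654, and 0.0654 after Benjamini-Hochberg adjustment over the 2 pairs that could be tested. Twist1 had 0 in 202 kb and Twist2 had 6 in 247 kb, which is 2.43 per 100 kb lower for Twist1 (Twist1 share 0%, exact 95% interval 0 to 45.9%, with 45.1% of the length; exact binomial p = 0.0359, adjusted 0.0654). Neither passed the threshold of 0.05. Zeb1-Zeb2 could not be tested, as it has 0 peaks in 384 and 334 kb. The gene bodies of Twist2 and Twist1 differ 21.6-fold in length, and with the flanks alone the pair had 5 peaks against 0.

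With flanks of 200 kb, where all 3 pairs could be tested, the Snai and Twist differences passed (Snai1 18 against Snai2 2, adjusted exact binomial p = 0.0012; Twist2 10 against Twist1 0, adjusted p = 0.0033). The binomial test treats neighbouring peaks as independent. Among the genes matched in length to these 4 members, the variance of the count was 3.45 to 4.70 times its mean, where independent peaks would give a ratio of 1, so these p-values are too small.

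The Twist genes each have a class IIa histone deacetylase gene as neighbour. Hdac4, 80.7 kb past Twist2, had 3 peaks in its 267 kb body, or 1.12 per 100 kb. Its paralog Hdac9, 87.7 kb past Twist1, had 1 in 870 kb, or 0.115 per 100 kb. With flanks of 1000 kb, Snai1 had 80 peaks against 19 for Snai2, Twist2 had 52 against 11 for Twist1, and Zeb1 had 20 against 2 for Zeb2. Zeb1 then stood at percentile 55.0 of its length group and Zeb2 at 3.1. With flanks of 500 kb Zeb1 had 8 and Zeb2 had 0. These wider flanks were chosen after the counts had been seen and were not tested.

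**Figure D5:**
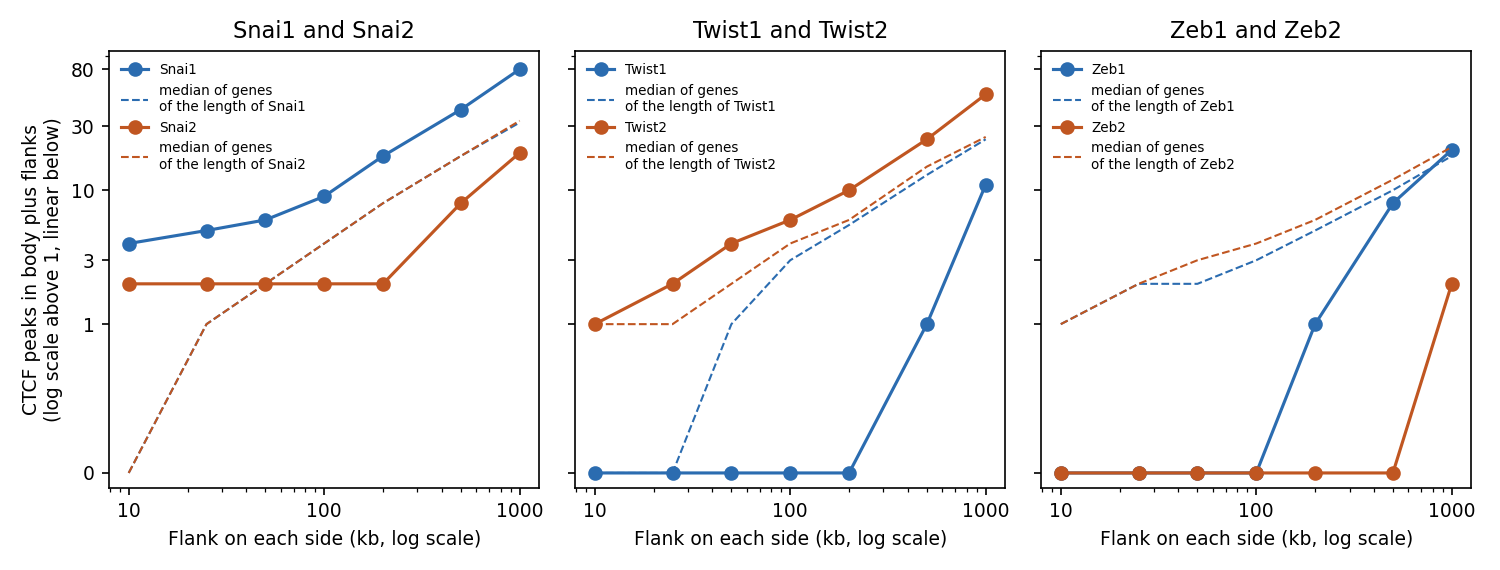
Number of CTCF peaks in the body plus flanks (vertical axis, log scale above 1 and linear below) against the flank on each side in kb (log scale) for the paralog pairs; dashed lines are medians of the 500 protein-coding genes closest in length. Snai1 stays above Snai2 and Twist2 above Twist1 at each flank, and Zeb1 rises to 20 peaks at 1000 kb while Zeb2 reaches 2.

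A list of 28 other transcription factors of mesenchyme and EMT was counted in the same way. Of these, 26 (92.9%) had a peak in the window, against 81.8% of all protein-coding genes, and the median of 3 was the same in both. Among genes of like length their median percentile was 47.1, and 10 of the 28 stood above 50. A peak lay in the body of 8 (28.6%), against 29.5% of all protein-coding genes. Within 1 kb of an end it was 0 of 28, against 12%. Meox1, a homeobox gene of the somites, and Prrx2, the paralog of Prrx1, had most, with 18 each, followed by Tead2 with 14 and by Scx, a tendon factor, Foxc2 and Hand1 with 8 each (the last pair named after their values were seen). Prrx1 itself had 2. Hand2, a heart and limb factor, and Meox2 had 0.

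Among 29 partners and targets of the EMT factors, 27 (93.1%) had a peak in the window, against 81.8% of all protein-coding genes. The median was 4, against 3. Among genes of like length their median percentile was 53.3, and 15 of the 29 stood above 50. A peak lay in the body of 10 (34.5%), against 29.5% of all protein-coding genes. Tcf3, which encodes the E-protein partner of TWIST proteins, had 16 peaks in its window. Id1 and Id3, inhibitors of basic helix-loop-helix factors, and Ovol1, an epithelial zinc finger gene, had 11 each. Esrp1, an epithelial splicing factor gene, and Hdac2 had 0. Cdh1, the E-cadherin gene repressed by SNAIL and ZEB proteins, had 8 peaks, 1 of them in the body. A gene-end peak was found at 4 of the 29 (13.8%), close to the 12% of all protein-coding genes. These were Hdac1, Kdm1a, Tgfb1 and Tgfbr2, which with Cdh1 are named here after their values were seen. The Kdm1a promoter window had a peak over 233 of its bases and neither form of the CTCF core. Those of Id4 and Smad3, also named after their values were seen, held the full 12-base core and no peak. The Tgfb1 promoter window (chr7:25686752-25687051, plus strand), that of the growth factor that induces EMT, had a peak over its first 204 bases. It held the full 12-base core under that peak, printed here as the counterpart of the Snai1 match.
Tgfb1: CCGCCAGGAGGC

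The lists overlap in function with the 8 members and were drawn up with results of these data known, so their counts are given as description.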

How the data were processed

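CTCF chromatin immunoprecipitation and sequencing was done in 4 libraries with 1 input library. Per the submitters' processing notes, STAR, Picard and MACS2 and the builds mm10 and dm6 were used, without roles or versions. The sources used here do not give the peak threshold, the merging or what the Drosophila build dm6 was used for. The authors deposited 1 list of peak starts and ends (positions, with no score), without a sample in any of its 3 columns. Depth per library is unknown.

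Gene positions came from RefSeq GRCm38.p6: of 49997 genes, 49603 on chromosomes 1 to 19, X and Y were kept after 340 placed below 3 Mb, where no peak lies and positions may be those of unplaced scaffolds, were left out, 21779 of them protein-coding. Strand came from the RefSeq promoter table (17492 protein-coding genes). It has no entry for Snai2 or Zeb1. A peak was counted by its midpoint, with positions counted from 1. Each member was compared with the 500 protein-coding genes closest in log length, members left out, as a percentile with no test. Pairs were compared by the exact two-sided binomial test on window lengths (scipy 1.17.1), with Benjamini-Hochberg adjustment and a threshold of 0.05. Intervals cover counting only. The counting and tests were tested on simulated data. For the pair test the simulated counts were independent Poisson draws, so this check does not cover the wider spread of the real counts. Alternatives were any overlap, wide peaks, merged neighbours, other end distances and flanks, and other comparison genes. Genes were named by a rule: all members, their neighbouring protein-coding genes, and from each of 2 further lists up to 4 with most and 2 with fewest peaks. The 10-base motif, the E-box, the miR-200 genes and flanks of 10, 25, 500 and 1000 kb were added after seeing the data. The count of genes with a peak on both sides of the start was not planned either. The members and lists were chosen with earlier results of these data known.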

Additional observations from a re-analysis of the deposited data

How the results depend on the processing

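The count of members with a gene-end peak was 2 under each of the 5 alternatives tried. When peaks narrower than the median width were dropped, 0 members had a body peak, since the body peaks at Snai1 and Twist2 are narrower, and the median per member fell from 1 to 0.5; it was also 0.5 with flanks of 50 kb. With flanks of 200 kb the Snai1-Snai2 difference of 3.95 peaks per 100 kb and the Twist1-Twist2 difference of -2.24 passed the binomial test; under the other 5 alternatives neither did (adjusted p from 0.0654 to 0.289), with no change of direction. The number of members above the middle of their length group was 2 or 3 in 11 of 12 alternatives and 4 with flanks of 1000 kb. No paired analysis was possible because no peak is tied to a library. With positions alone, neither peak strength nor a difference between conditions could be measured.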

Other observations

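The microRNAs of the miR-200 family, which repress Zeb1 and Zeb2 in epithelial cells, had CTCF peaks within 100 kb of their hairpins. The windows of both target genes had 0. A peak in the body plus 100 kb on each side is common, at 81.8% of all protein-coding genes. The microRNAs were added after the values of the members had been seen. The cluster of Mir200b, Mir200a and Mir429 on chromosome 4 had 2 peaks within 100 kb, the nearest 20.1 to 21.9 kb away, and no peak of the list lies beyond it on that chromosome. The cluster of Mir200c and Mir141 on chromosome 6 had 9, the nearest 15.01 to 15.42 kb away on the side of lower coordinates and 22.04 to 22.44 kb away on the other. The mature 3p sequences are from RefSeq on GRCm38.p6, all on the minus strand, with the seed (bases 2 to 8) in capitals. They fall into a group with the seed AAUACUG (the first 3 shown) and a group with AACACUG (the others).
mmu-miR-200b-3p: uAAUACUGccugguaaugauga
mmu-miR-200c-3p: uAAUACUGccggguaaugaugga
mmu-miR-429-3p: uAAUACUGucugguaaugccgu
mmu-miR-200a-3p: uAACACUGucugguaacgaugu
mmu-miR-141-3p: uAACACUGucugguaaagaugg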
